A study of Ricinus communis with 18 samples.

Results

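Catalase isozyme 1 (ncbi_8273613) and catalase isozyme 2 (ncbi_107261240) are the 2 genes, of 21332 in the deposited table of castor (Ricinus communis) root RNA, whose listed products carry those names. They are taken to have been chosen by their measured opposite difference between PEG and untreated roots at 3 days. That contrast is thus given below as a description with no test. Values of the other days may also have been known, so tests on those days may not be independent of the choice. The treated roots were PEG roots of 3 days and of 7 days, sampled while in 15% PEG-6000, and rehydrated roots, sampled on day 11 after 4 days without PEG. Each had untreated roots of the same day as its control, which gave 6 groups of 3 libraries from whole root systems. PEG-6000 is a polymer that holds back water outside the cells and so imposes osmotic stress. No strain, age of the plants or growth conditions are given in the labels, and whether libraries of 1 group stem from different plants is not stated. The p-values thus cover the spread between these samples only. Oxidative stress under drought is the subject that the series title gives.

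Catalases are heme enzymes that turn hydrogen peroxide into water and oxygen without using up a reductant. They sit mainly in peroxisomes, where oxidases of fatty acid breakdown and of photorespiration release hydrogen peroxide, and the oil-storing seed of castor is a classic source of such peroxisomes. Plants usually carry several catalase genes that differ in the organ and the time of their expression.

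Library totals ran from 6607760 to 10817476 counts, and 16085 genes had enough counts to be tested, the catalase genes among them. Every pair of libraries within a group differed beyond counting noise. Root markers were present in all groups, with 1 of 13 listed genes at 0 in each. The summed level of the 13 genes is given in FPKM (fragments per gene, scaled by its length and the library total). It was 808 to 1400 FPKM in PEG roots of 3 days, against 3240 to 4300 FPKM in untreated roots. At 7 days it was 3670 to 4690 FPKM in PEG roots and 3900 to 4620 in untreated roots. At 11 days it was 1930 to 1990 FPKM in rehydrated roots, below the 2580 to 4170 in untreated roots. The median log2 difference of the 9 tested root genes was -1.35, -1.03 and -0.81 on days 3, 7 and 11. Of the 9, 1, 2 and 1 were above 0 on these days, and medians over all genes were -0.08, -0.06 and 0. No root gene was called at 7 or 11 days, where 1.46% and 0.00622% of all genes were called lower. Of 9 tested root genes 5 were lower in PEG roots of 3 days, where 11.4% of all genes were called lower, among them a high-affinity nitrate transporter 2.1-like gene. This gene, ncbi_8275206, stood at 19.8 ± 23.7 FPKM, against 449 ± 80.6 FPKM in untreated roots (SD, n = 3 each; -4.06 ± 0.81 on the log2 scale, edgeR adjusted p = 0.00341). Of 28 tested photosynthesis genes, listed as markers of shoot tissue, 21 were called higher in PEG roots of 7 days, where 2.59% of all genes were. Scaling by library totals called 16 of the 28, and 188 of all 16085 tested genes, higher there. The summed level of the 30 listed genes was 2230 to 2790 FPKM in these roots, against 327 to 669 FPKM in untreated roots. At 3 days 8 of the 28 were called higher, against 11.7% of all genes (2 of the 28 with scaling by library totals), with sums of 763 to 1770 FPKM in PEG roots and 389 to 929 in untreated roots. At 11 days none was called, with sums of 473 to 796 FPKM in rehydrated roots and 340 to 863 in untreated roots. The part of these root and shoot genes in the catalase differences was not tested. In whole roots, fewer cells of a type and less RNA per cell cannot be told apart.

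In PEG roots of 3 days, isozyme 1 was above and isozyme 2 below every untreated library of that day. Isozyme 1 stood at 565, 688 and 643 FPKM in the PEG libraries, against 152, 274 and 180 FPKM in the untreated libraries. Isozyme 2 stood at 15.8, 4.60 and 19.2 FPKM in the PEG libraries, against 131, 28.5 and 82.6 FPKM in the untreated libraries. The groups did not overlap for either gene, and isozyme 2 varied widely among the untreated libraries themselves. The share of all genes whose groups were apart in this way was not counted on any day. Being apart is thus not shown to be particular to the catalase genes. The log2 difference was 2.09 ± 0.31 (SE) for isozyme 1 and -2.17 ± 0.72 for isozyme 2. Among all tested genes 11.7% were called higher and 11.4% lower in this contrast, at an adjusted p below 0.05 in edgeR's quasi-likelihood test. When libraries were scaled by their totals alone the difference of isozyme 1 was 1.65 and that of isozyme 2 was -2.61, beside a median of -0.52 over all genes in place of -0.08. That scaling called 912 genes higher and 4157 lower, in place of 1883 and 1829. Genes of about the same length as the catalases (1998 and 1902 bases, as the counts and FPKM imply) had medians of -0.20 and -0.18.

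**Figure D1:**
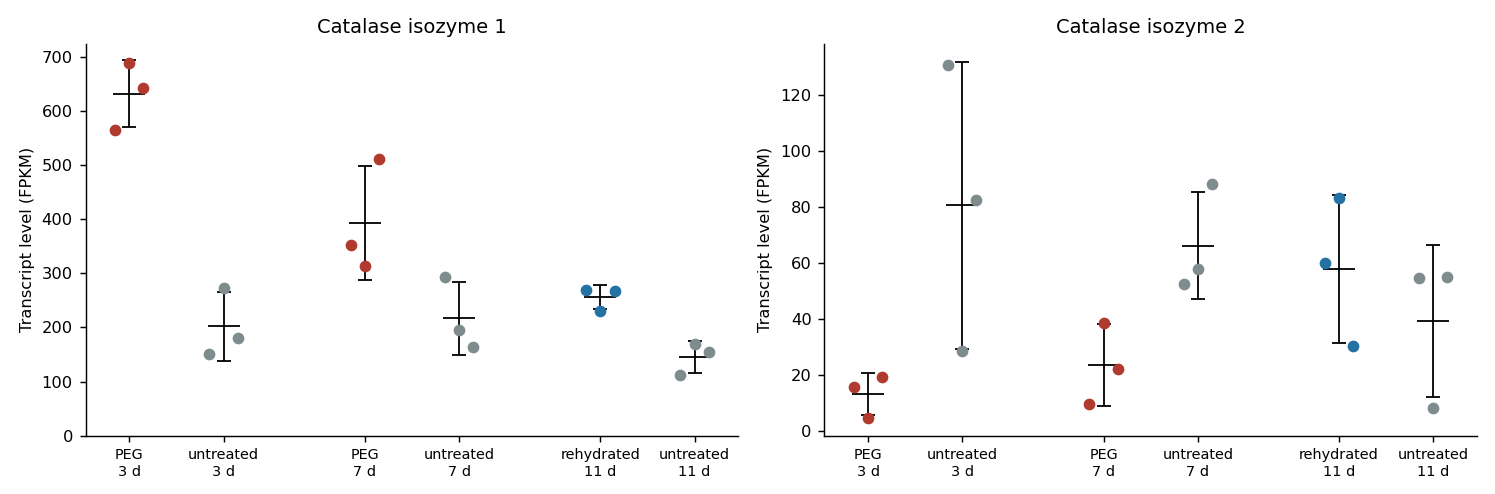
FPKM of catalase isozyme 1 (left) and isozyme 2 (right) in each library, by group; bars are the mean and SD of 3 libraries, and the vertical scales differ. Isozyme 1 lies at 565 to 688 FPKM in PEG roots of 3 days, and isozyme 2 at 4.60 to 19.2 FPKM.

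In PEG roots of 7 days isozyme 1 was again higher than in untreated roots, by a smaller amount. It stood at 352, 314 and 512 FPKM in the PEG libraries, against 292, 194 and 164 FPKM in the untreated libraries. All PEG libraries lay above all untreated ones, the closest pair being 314 and 292 FPKM. The log2 difference was 1.11 ± 0.30, or 2.16-fold, and passed narrowly with an edgeR adjusted p of 0.0488. In this contrast 2.59% of genes were called higher and 1.46% lower, which is 417 and 235 genes, in place of which scaling by library totals gave 188 higher and 450 lower. The call held without PEG library 2 and ended without any other single library of that day. The edgeR adjusted p was then 0.174 and 0.16 without PEG library 1 and 3, and 0.0695, 0.182 and 0.104 without untreated library 1, 2 and 3. It also ended with scaling by library totals, where the log2 difference was 0.86 with an adjusted p of 0.0862.

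Isozyme 2 stood at 9.73, 38.7 and 22.1 FPKM in the PEG libraries of 7 days, against 52.7, 57.8 and 88.2 FPKM in the untreated libraries. Again the groups did not overlap, but the PEG libraries differed widely among themselves. Over all 16085 tested genes, 3821 had an unadjusted edgeR p below 0.05 in this contrast. The log2 difference was -1.29 ± 0.70 with a 95% interval from -2.76 to 0.19 and an edgeR adjusted p of 0.271, so it was not called. Without PEG library 2, the highest of its group, the difference was -1.79.

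After 4 days without PEG, rehydrated roots kept isozyme 1 above their day-11 controls in every library, and isozyme 2 overlapped with its controls. Isozyme 1 stood at 270, 231 and 268 FPKM in rehydrated roots, against 112, 169 and 155 FPKM in untreated roots, whose FPKM was computed from the counts. The 2 groups did not overlap, with a log2 difference of 0.72 ± 0.30 (95% interval 0.08 to 1.35, unadjusted p = 0.0294 in edgeR), but the adjusted p was 0.451. In that contrast only 0.00622% of genes, 1 of 16085, were called higher and as many lower by edgeR, while DESeq2 called 20 higher and 38 lower and 1564 genes had an unadjusted edgeR p below 0.05. Isozyme 2 stood at 59.9, 83.1 and 30.4 FPKM in rehydrated roots, against 54.7, 7.98 and 55.2 FPKM in untreated roots. Untreated library 2 of day 11 was thus within the range of the PEG roots of 3 days, with 116 counts of isozyme 2, beside 688 and 875 in libraries 1 and 3. The log2 difference was 0.51 ± 0.69 (95% interval -0.94 to 1.97, edgeR adjusted p = 0.853), and it was 0.04 without untreated library 2.

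**Figure D2:**
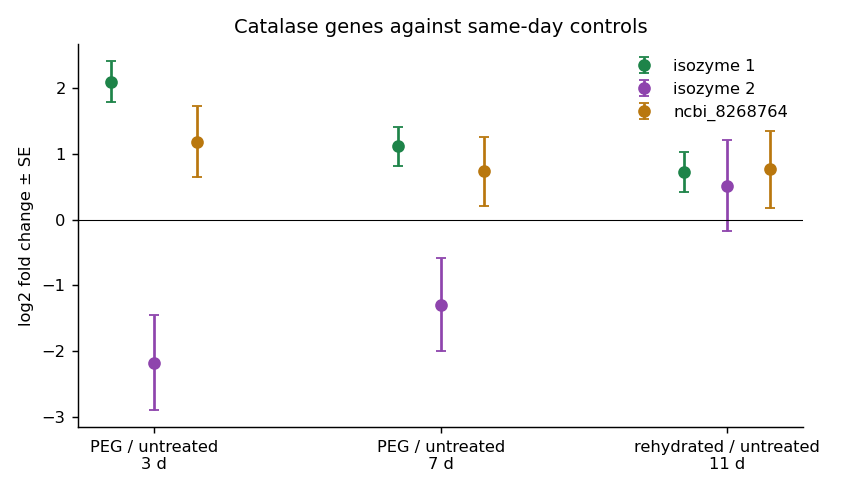
Log2 fold change with SE from edgeR for isozyme 1, isozyme 2 and the remaining catalase gene (ncbi_8268764), each treated group over untreated roots of the same day. Isozyme 1 lies at 2.09, 1.11 and 0.72 and isozyme 2 at -2.17, -1.29 and 0.51 on days 3, 7 and 11. The 3-day values are taken to be those by which the genes were chosen.

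Set directly against PEG roots of 7 days, rehydrated roots had less isozyme 1, with a log2 difference of -1 ± 0.30 and an edgeR adjusted p of 0.0249, in a comparison where 25.1% of all genes were called. The lowest PEG library had 314 FPKM and the highest rehydrated one 270. The call held without PEG library 2 and ended without each of the other 5 libraries, at adjusted p between 0.0595 and 0.0998, and with library totals (-0.62, adjusted p = 0.102). Isozyme 2 differed by 0.98 ± 0.69 on the log2 scale with an edgeR adjusted p of 0.304, and by 0.64 without PEG library 1, 1.48 without PEG library 2 and 0.58 without rehydrated library 2. Removal of PEG and 4 further days cannot be told apart in this comparison. In untreated roots of day 11 against those of day 7, isozyme 1 differed by -0.60 ± 0.30 and isozyme 2 by -0.82 ± 0.69, with edgeR adjusted p of 0.781 and 0.918, and 0.0187% of genes were called. Isozyme 1 then differed by -0.35 without library 1 of day 11 and -0.33 without library 1 of day 7, and isozyme 2 by -0.34 and -1.3 without library 2 and 3 of day 11.

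The difference from same-day controls was also compared between day 11 and day 7 as an interaction, for which 0.671% of genes were called. For isozyme 2 it was 1.80 ± 0.98 higher in rehydrated than in PEG roots, with a 95% interval from -0.27 to 3.87 and an edgeR adjusted p of 0.309. For isozyme 1 it was -0.40 ± 0.42 (95% interval -1.29 to 0.49, edgeR adjusted p = 0.609), but -0.04 with library totals, -0.03 with limma on log2 FPKM, and -0.63 to -0.19 with a library left out. Neither interaction was called with 3 libraries a group. All these comparisons share groups with each other, so their values are given side by side only.

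Ordered by mean level, isozyme 1 stood at 632 ± 62.4 FPKM in PEG roots of 3 days, 392 ± 105 in PEG roots of 7 days and 256 ± 21.9 in rehydrated roots (SD, n = 3 each). It averaged 217 ± 67.0 FPKM in untreated roots of 7 days, 202 ± 63.7 in those of 3 days and 145 ± 29.4 in those of 11 days. Neighbours in that order did not overlap down to the rehydrated roots, and overlapped from there on. Isozyme 2 was lowest in PEG roots, with 13.2 ± 7.63 FPKM at 3 days and 23.5 ± 14.5 at 7 days. It averaged 57.8 ± 26.4 FPKM in rehydrated roots, and 80.7 ± 51.3, 66.2 ± 19.2 and 39.3 ± 27.1 in untreated roots of 3, 7 and 11 days (SD, n = 3 each). Every pair of neighbours in the order of these means overlapped. Among the tested genes, isozyme 1 lay above 98.8% of them in PEG roots of 3 days and above 94.8 to 98.1% in the other groups. Isozyme 2 lay above 66.4% of them in PEG roots of 3 days, against 91.2% in untreated roots of that day.

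The balance between the isozymes does not depend on how libraries are scaled, since both are read in the same library. Isozyme 2 made up 2.71, 0.664 and 2.90% of the FPKM of the pair in PEG roots of 3 days, against 46.3, 9.44 and 31.5% in untreated roots. At 7 days its share was 2.69, 11.0 and 4.14% in PEG roots, against 15.3, 22.9 and 34.9% in untreated roots. At 11 days it was 18.2, 26.5 and 10.2% in rehydrated roots, against 32.8, 4.52 and 26.3% in untreated roots. The groups were thus apart on days 3 and 7 and overlapped on day 11. The log2 ratio of isozyme 1 to isozyme 2 averaged 4.24 ± 1.11 in PEG roots of 7 days and 1.71 ± 0.79 in untreated roots, a difference of 2.54 (exact two-sided permutation test, p = 0.1, the smallest that 3 against 3 libraries can give). It averaged 2.26 ± 0.84 in rehydrated roots and 2.31 ± 1.83 in untreated roots of day 11 (difference -0.05, exact permutation p = 0.9).

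**Figure D3:**
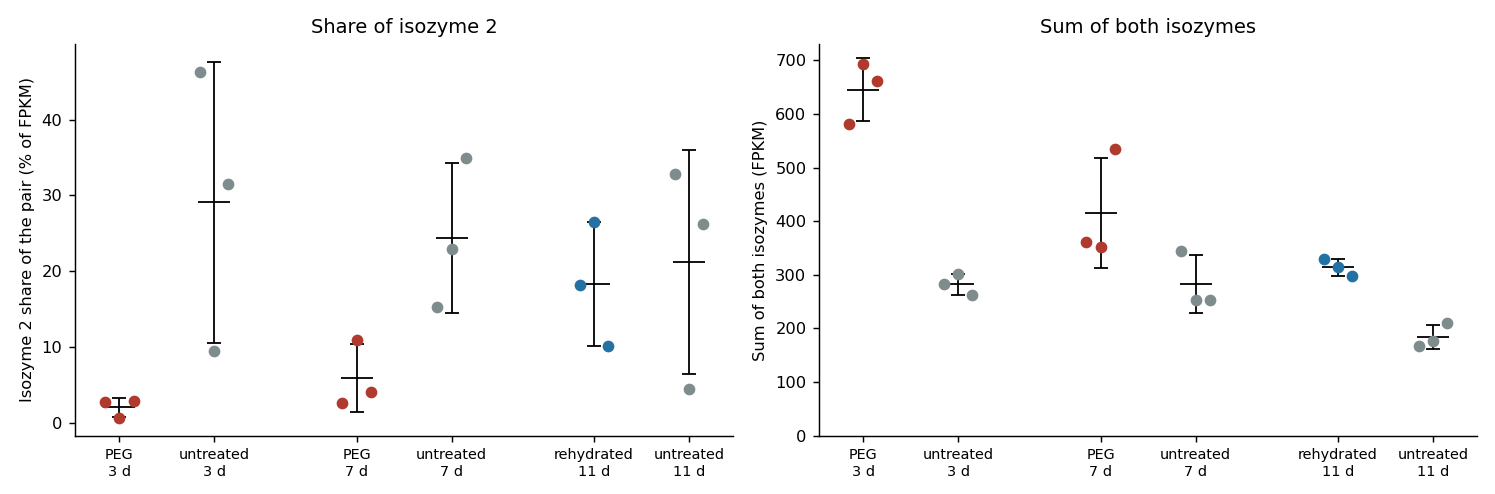
Left, share of isozyme 2 in the FPKM of the pair, in percent; right, sum of both isozymes in FPKM. Points are libraries and bars the mean and SD of 3; PEG roots of 3 days have shares of 0.664 to 2.90% and sums of 581 to 693 FPKM.

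The summed level of the pair followed isozyme 1. It was 581, 693 and 662 FPKM in PEG roots of 3 days, against 283, 302 and 263 FPKM in untreated roots. At 7 days it averaged 416 ± 102 FPKM in PEG roots and 283 ± 53.5 FPKM in untreated roots (SD, n = 3 each; exact permutation p = 0.1). The difference of 133 FPKM was 73.7 FPKM without PEG library 3. At 11 days it averaged 314 ± 15.6 FPKM in rehydrated roots and 184 ± 22.4 FPKM in untreated roots (exact permutation p = 0.1). On both days every treated library lay above every untreated one, which gives the smallest p this number of libraries allows. These are transcript levels, and catalase protein or activity was not measured in these files.

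Another gene with a catalase product, ncbi_8268764 (best hit catalase-2 of Jatropha curcas), was rare in roots. It made up at most 1.40% of the FPKM of all catalase genes in any library. It averaged 2.15 ± 0.199 FPKM in PEG roots of 3 days, against 1.27 ± 0.633 in untreated roots, and 3.55 ± 0.578 in PEG roots of 7 days, against 2.60 ± 2.03 in untreated roots (SD, n = 3 each). In rehydrated roots it had 1.18 ± 0.416 FPKM, against 0.627 ± 0.430 in untreated roots of day 11. None of the contrasts with same-day controls was called (edgeR adjusted p = 0.122, 0.394 and 0.726). It was lower in rehydrated than in PEG roots of 7 days, at -1.98 ± 0.55 on the log2 scale (edgeR adjusted p = 0.0171), a call that ended without PEG library 1 or rehydrated library 1 or 2. Its difference between untreated roots of day 11 and day 7 was -2 ± 0.57 (edgeR adjusted p = 0.469).

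Within groups too, libraries with less isozyme 2 tended to have more isozyme 1. Deviations from the group means on the log2 scale of counts scaled to library size (CPM) ran from -1.79 to 1.07 for isozyme 2 and from -0.55 to 0.49 for isozyme 1. Over all 18 libraries their Pearson correlation was -0.60 and Spearman's rho -0.63 (exact permutation within groups, p = 0.049 and 0.0312). It was the only within-group relation given a p, which is not adjusted for the correlations with other genes given without one. Without the 2 libraries farthest from the median of isozyme 2, untreated library 2 of day 11 and of day 3, they were -0.39 and -0.51 (exact permutation p = 0.125 and 0.0544), so the relation rests in part on those libraries. Library 2 had the lowest isozyme 2 of its group in both PEG and untreated roots of 3 days (-1.23 each), and without the 3-day libraries r was -0.46 (exact permutation p = 0.311). The first component of all within-group variation held 44.8% of it and correlated with the deviations of isozyme 2 at an absolute r of 0.65 and of isozyme 1 at 0.39. Of 10216 other genes with a mean of at least 5 FPKM, 7.95% had a within-group correlation with isozyme 2 as low as that of isozyme 1. For isozyme 1 the share of genes as low as isozyme 2 was 1.31%.

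**Figure D4:**
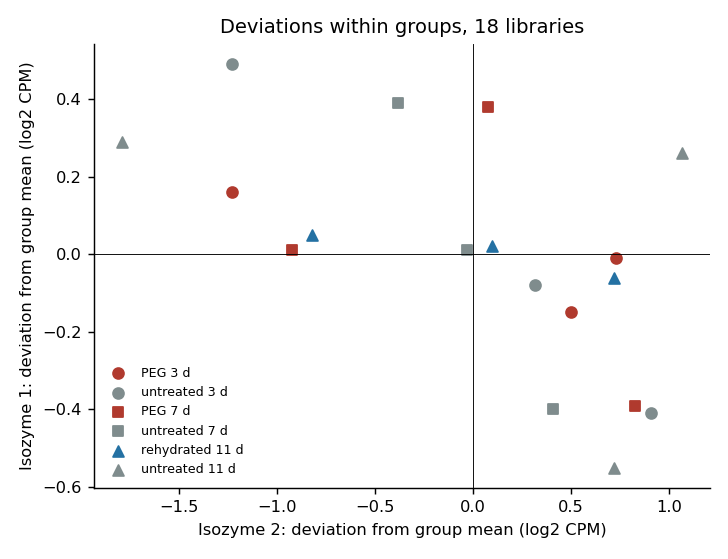
Deviation of each library from its group mean in log2 CPM, isozyme 2 on the horizontal and isozyme 1 on the vertical axis, with colour and shape for the 6 groups. The 18 points slope downwards (Pearson r -0.60), with untreated library 2 of day 11 at the far left at -1.79.

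The catalase genes lie next to each other in NCBI's RefSeq gene order for assembly ASM1957865v1, used here only for which genes are neighbours, and ncbi_8268764 lies on another chromosome. Of the 4 RefSeq genes on either side of the pair, 7 were tested. The neighbours beyond isozyme 1 were a nitrate-responsive factor gene NLP4 (ncbi_8273614), a Niemann-Pick C1 gene (ncbi_8273616) and a pair of protein kinase genes (ncbi_8273617 and ncbi_8273618). None of these 4 was called at 3, 7 or 11 days, with log2 differences between -0.79 and 0.94. Over all genes 11.7% were called higher and 11.4% lower on day 3, and 2.59% and 1.46% on day 7. On day 11 it was 0.00622% in each direction. With so few neighbours, a difference between the sides of the pair was not tested. Beyond isozyme 2, past an RNA gene that the table does not list, came U-box domain-containing protein 15 (ncbi_8273612), of a family of ubiquitin ligases. Its log2 difference was, like that of isozyme 2, below 0 on days 3 and 7, at -2.36 ± 0.66 on day 3 (edgeR adjusted p = 0.0187, lost without PEG library 2 or untreated library 1), -1.18 ± 0.61 on day 7 and -0.39 ± 0.59 on day 11 (adjusted p = 0.248 and 0.877), where isozyme 2 was at 0.51.

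Over all 18 libraries the U-box gene had the highest correlation with isozyme 2 of 16084 other tested genes, at r = 0.91, and also the highest within groups, at 0.95. It was weakly expressed, with 4, 1 and 8 counts in PEG roots of 3 days, against 44, 10 and 26 in untreated roots. At 7 days it had 5, 15 and 10 counts in PEG roots, against 23, 21 and 36 in untreated roots, and at 11 days 16, 18 and 16 counts in rehydrated roots, against 25, 7 and 28 in untreated roots. Untreated library 2 was the lowest of its group on days 3 and 11 for both genes. This gene was picked out after its values were seen. Whether counting used strand is not given in the sources used here, so its low counts next to an abundant gene are uncertain. The next gene (ncbi_8273611, cyclin-B2-4-like) was not called, and the BTB/POZ gene after it (ncbi_8273610) was higher in PEG roots of 3 days (2.04 ± 0.50, edgeR adjusted p = 0.0102, lost without PEG library 1 or untreated library 1).

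**Figure D5:**
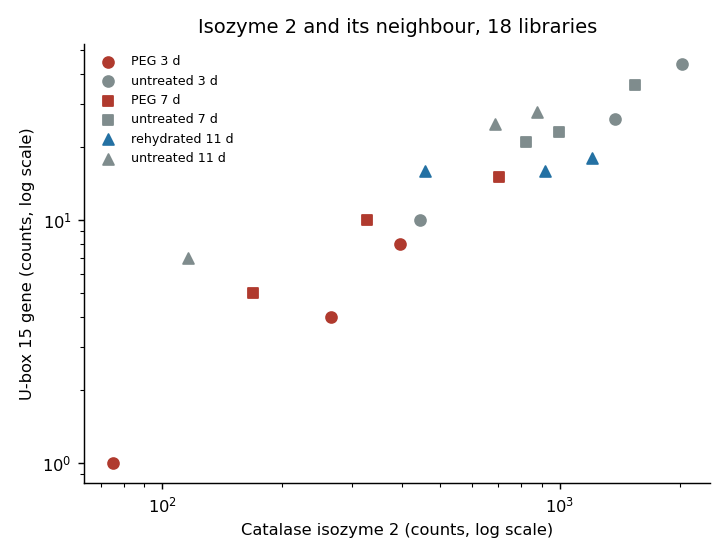
Counts of catalase isozyme 2 (horizontal) and of its neighbour, the U-box 15 gene (vertical), in each of 18 libraries; both axes are logarithmic. The U-box gene runs from 1 to 44 counts; the 3 rehydrated libraries hold 16, 18 and 16 while isozyme 2 there runs from 457 to 1205.

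The genes most like isozyme 1 over the 18 libraries were found by Pearson correlation of log2 CPM among 10216 genes with a mean of at least 5 FPKM. These libraries share their treatment groups, so the values describe likeness and carry no test. The first 5 were the auxin receptor gene TRANSPORT INHIBITOR RESPONSE 1 (ncbi_8287179, r = 0.971), a WAT1-related transporter (ncbi_8277244, 0.967) and isovaleryl-CoA dehydrogenase of leucine breakdown (ncbi_8286026, 0.965). They were followed by peroxisomal 3-keto-acyl-CoA thiolase (ncbi_8265629, 0.961), which cleaves off acetyl-CoA in fatty acid beta-oxidation, and a PHD finger protein of the ALFIN-LIKE family (ncbi_8258558, 0.953). The thiolase averaged 485 FPKM over all libraries, and its log2 differences were 1.90, 1.21 and 0.25 on days 3, 7 and 11, beside 2.09, 1.11 and 0.72 for isozyme 1. Lowest were a beta-1,3-galactosyltransferase gene (ncbi_8266258, r = -0.939), the receptor kinase FEI 1 (ncbi_8280098, -0.932) and a GPI-anchor transamidase gene (ncbi_8268197, -0.925). A costars family gene (ncbi_8266900) and the small GTPase RABC2a (ncbi_8283968), both at -0.916, completed the 5.

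For isozyme 2 the correlations were lower. The first 5 were an endoglucanase CX-like gene of wall glucan cleavage (ncbi_8288851, r = 0.886), mitochondrial NAD-dependent malic enzyme (ncbi_8258537, 0.881), proline--tRNA ligase (ncbi_8274414, 0.862), synaptotagmin-5 (ncbi_8258468, 0.856) and the ketoacyl-ACP reductase of plastid fatty acid synthesis (ncbi_8278455, 0.850). The endoglucanase had log2 differences of -3.68, -1.07 and 0.64 on days 3, 7 and 11, beside -2.17, -1.29 and 0.51 for isozyme 2. Lowest were an alpha/beta hydrolase 17B gene (ncbi_8282520, r = -0.866), REVEILLE 6 (ncbi_8277093, -0.845), of a family of clock-related Myb factors in Arabidopsis, and CBSX5-like (ncbi_8279481, -0.844). A transport and Golgi organization 2 homolog (ncbi_8273620, -0.840) and a receptor-like kinase (ncbi_8264868, -0.836) came next.

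Of 16 tested ascorbate peroxidases and thiol peroxidases, which unlike catalase need a reductant, 3 were called higher in PEG roots on day 3, where 11.7% of all genes were, 3 on day 7, where 2.59% were, and none on day 11, and none was called lower. All the calls were thiol peroxidases. At 3 days 1-Cys peroxiredoxin (ncbi_8262608) was at 16.4 ± 5.49 FPKM in PEG roots and 2.18 ± 1.97 in untreated roots (3.34 ± 0.86, edgeR adjusted p = 0.0131). Of 5 tested ascorbate peroxidases none was called on any day, with medians of 0.52, 0.48 and -0.15 on days 3, 7 and 11. Of 7 superoxide dismutases, which make hydrogen peroxide from superoxide, a chloroplastic Cu-Zn form (ncbi_8275247) was higher on day 3, at 310 ± 98.3 FPKM in PEG roots and 181 ± 45.9 in untreated roots (1.21 ± 0.27, edgeR adjusted p = 0.00614; 0.78 with library totals). Under library totals 2 of the 16 were called on day 3 and 1 on day 7, the median of the 16 was 0.04 in place of 0.48 on day 3, and that of the dismutases was -0.30 in place of 0.14.

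Of 21 tested oxidases that release hydrogen peroxide, 2 were called higher and 3 lower in PEG roots of 3 days, near the shares over all genes (11.7% and 11.4%), 1 lower at 7 days (1.46% of all genes) and none at 11 days, with a median of 0.21 on day 3 that was -0.22 under library totals. Peroxisomal primary amine oxidase (ncbi_8278300), which oxidizes amines, fell on day 3 to 16.3 ± 1.56 FPKM in PEG roots, against 60.8 ± 5.62 in untreated roots (-1.46 ± 0.25, edgeR adjusted p = 0.00136). On day 7 it was at 27.2 ± 6.14 FPKM in PEG roots and 75.6 ± 20.5 in untreated roots (-1.25 ± 0.25, edgeR adjusted p = 0.0174, lost without PEG library 1 or untreated library 1 or 2). The list of beta-oxidation and glyoxylate cycle genes, matched by product name, does not hold the 3-keto-acyl-CoA thiolase described above. Of its 12 tested genes 4 were higher and none lower on day 3, against 11.7% and 11.4% of all genes, with acetyl-coenzyme A synthetase (ncbi_8273050) at 1.48 ± 0.31 (edgeR adjusted p = 0.00431). On day 7, where 2.59% of all genes were called higher, the only call on this list was the glyoxysomal processing protease (ncbi_8258443), which trims imported peroxisomal proteins in Arabidopsis, at 1.23 ± 0.29 (edgeR adjusted p = 0.0312). That call held without PEG library 2 and ended without each of the other 5 libraries. Under library totals 2 of the 12 were called on day 3 and none on day 7.

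Of 19 tested peroxisome assembly genes 2 were higher and 2 lower on day 3, near the shares over all genes (11.7% and 11.4%), and 1 was lower on day 7, with medians of -0.09 and 0.04. PEROXIN-4 (ncbi_8280419), of the machinery that recycles the import receptor, stood at 90.1 ± 1.21 FPKM in PEG roots of 3 days and 58.4 ± 15.2 in untreated roots (1.06 ± 0.22, edgeR adjusted p = 0.00415; 0.63 with library totals). Library totals gave 1 higher and 5 lower on that day. Photorespiration genes had 3 higher and 3 lower of 26 on day 3, likewise near those shares, and 2 higher and 2 lower on day 7, where 2.59% and 1.46% of all genes were called. Serine hydroxymethyltransferase 4 (ncbi_8286891), of one-carbon metabolism, was at 115 ± 47.5 FPKM in PEG roots of 7 days and 513 ± 195 in untreated roots (-1.96 ± 0.36, edgeR adjusted p = 0.0105, lost without untreated library 2 or PEG library 1). Serine--glyoxylate aminotransferase (ncbi_8286122) went the other way, at 181 ± 51.2 FPKM in PEG roots of 7 days and 43.4 ± 23.8 in untreated roots. Its log2 difference was 2.36 ± 0.62 (edgeR adjusted p = 0.0438). That call held without PEG library 2 and ended without each of the other libraries of that day. Library totals gave 1 higher and 8 lower on day 3 and none higher and 3 lower on day 7. Of 4 genes whose products are known to act on catalase in other plants, LSD1 (ncbi_107262100), which binds catalases in Arabidopsis, was higher on day 3, at 84.1 ± 21.9 FPKM in PEG roots and 48.9 ± 19.7 in untreated roots (1.22 ± 0.40, edgeR adjusted p = 0.0388). With library totals it was not called (0.78, adjusted p = 0.144), and the call also ended without untreated library 1 or 3 or PEG library 2 or 3.

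The clock is known to time catalase genes in Arabidopsis leaves, and the hour of sampling is not in the labels. Of 18 tested clock genes 3 were higher and none lower on day 3, against 11.7% and 11.4% of all genes, none was called on days 7 and 11, and library totals gave 1 higher and 4 lower on day 3. REVEILLE 4 (ncbi_8289666) was at 17.1 ± 12.5 FPKM in PEG roots of 3 days and 4.50 ± 2.54 in untreated roots (2.37 ± 0.53, edgeR adjusted p = 0.00569). The part of the clock in the catalase differences was not tested. No gene of any of these lists was called in rehydrated roots against their day-11 controls. In that contrast only 0.00622% of all genes were called higher and as many lower, so this is no finding about the lists.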

How the data were processed

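RNA from whole castor roots was sequenced in 18 libraries, 3 in each of 6 groups; a Trizol reagent and an mRNA library kit were used, per the labels. Which aligner, counter, genome build and strand setting the authors used is not given in the sources used here. The deposited table holds expected counts (estimated counts per gene), at least 98.3% of them whole in every library, and all 36 catalase counts were whole. They were rounded for the tests. The authors' FPKM served for levels. For the day-11 controls, titles and descriptions name conflicting FPKM columns, so these 3 columns were not used. Their FPKM was computed from the counts, the library totals and gene lengths implied by the other libraries, a calculation whose ratio to deposited FPKM was 0.995 to 1 elsewhere (5% and 95% quantiles, FPKM of at least 1). Genes listed at 0 in all those libraries have no such length and stayed at 0. Reads of close gene copies may have been split between them in ways not visible here.

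Low genes were removed by filterByExpr of edgeR (count minimum 10, total minimum 15); the rest were scaled by TMM (factors 0.765 to 0.806 in PEG roots of 3 days, 0.968 to 1.27 in untreated roots) and fitted over all 18 libraries with 1 mean per group by edgeR's robust quasi-likelihood test (R 4.3.3, edgeR 4.0.16). Benjamini-Hochberg adjustment covered all 16085 genes. The SE is the absolute log2 difference over the square root of F. Single values over libraries were tested by exact permutation. The members and lists were chosen with earlier results of these data known. Lists were matched by product name, and matches to unrelated proteins (such as efflux carriers in the clock list) were removed by product after seeing the names. Named genes are the members, the third catalase, per list up to 2 called genes of each direction with the largest change and a mean of at least 5 FPKM in 1 of the compared groups, of which a part is printed, and the 5 genes most and least like each member. Neighbours were looked at after the values were seen. The scripts were tested on simulated data. Alternatives were DESeq2 1.42.0, other scalings, no filter, only the libraries compared, a replicate block, an adjusted p below 0.01, limma 3.58.1 on log2 FPKM plus 1 or 0.1 (genes reaching 1 FPKM in 3 libraries; day-11 controls computed as above), and each library left out.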

Additional observations from a re-analysis of the deposited data

How the results depend on the processing

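The signs of all isozyme 1 and isozyme 2 differences in the edgeR comparisons held under every alternative run, and none became a call that was not one before. The call of isozyme 1 at 7 days held with DESeq2 and with DESeq2 size factors. It ended, at log2 1.11, with an adjusted p below 0.01, with no filter (adjusted p = 0.0588) and with the replicate block (adjusted p = 0.07), at 1.09 with only the libraries compared, at 0.86 with library totals or limma (offset 1), and at 0.87 with limma (offset 0.1). Left-out libraries gave 0.91 to 1.34. The call of rehydrated against 7-day PEG roots ended at -1 with an adjusted p below 0.01, at -0.62 with library totals, and at -0.58 and -0.59 with limma (offsets 1 and 0.1); left-out libraries gave -1.17 to -0.79. At 3 days isozyme 1 differed by 1.65 with library totals and 1.68 and 1.69 with limma, and by 1.9 to 2.38 with a library left out.

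Replicate numbers did not pair the libraries throughout: equal numbers correlated at 0.68, 0.55 and 0.06 on day 3, 0.07, 0.58 and -0.37 on day 7, and 0.20, -0.23 and -0.21 on day 11. Of 6 libraries a day, 5, 2 and 1 correlated best with their own number, so a link by number on day 3 is a hint from the data. The replicate block gave 3400, 541 and 2 genes on days 3, 7 and 11 in place of 3712, 652 and 2. In the contrasts tested for the isozymes, which leave out that of 3 days, it changed no call other than that of isozyme 1 at 7 days.

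With left-out libraries the log2 ratio at 11 days ran from -0.68 to 1 and so changed sign. Isozyme 2 ran from -2.56 to -1.67, -1.79 to -0.94 and 0.04 to 0.99 on days 3, 7 and 11. Counts of called genes moved more: 1433, 70 and 0 on days 3, 7 and 11 at an adjusted p below 0.01, and 1285, 170 and 0 with only the libraries compared. DESeq2 called 1688 on day 7 and 58 on day 11. Day 11 gave 1 with library totals, 0 with no filter and 4 with each limma offset. The interaction of 108 genes became 3, 20, 436, 942, 49 and 23 with the stricter p, library totals, only the libraries compared, DESeq2 and limma (offsets 1 and 0.1). Rehydrated against 7-day PEG roots gave 1416 with the stricter p in place of 4037. Untreated roots of day 11 against day 7 gave 0 with only the libraries compared, 61 with DESeq2 and 7 and 10 with limma in place of 3. With a library left out the counts ran from 1900 to 3959 on day 3, 47 to 824 on day 7, 0 to 3 on day 11, 3 to 433 for the interaction, 1567 to 3589 against PEG roots and 0 to 2 in untreated roots. Of genes eligible for naming, 13 of 27 at 3 days and 0 of 12 at 7 days kept their call with each library left out in turn. The 3-day set holds the isozymes and, beside the list genes, the U-box and BTB/POZ neighbours. As the isozymes are taken to have been chosen by the 3-day contrast, its tally is no test of them. The within-group correlation was -0.46 without the 3-day libraries, -0.65 in untreated and -0.51 in PEG and rehydrated libraries (exact permutation p = 0.311, 0.153 and 0.231), sets chosen after seeing the data. The causes were not tested. With 3 libraries a group, the intervals of isozyme 2 were wide.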
